A study of Mus musculus with 12 samples.

Results

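Klra4 and Klra17, 2 of the 12 Ly49 probes on a panel of 770 mouse genes, were followed across 12 samples of primary hepatocellular carcinoma from a mouse model. They were taken by name, and were chosen by their measured counts, which were lower at Dexa 200 mg than in the other groups, so their values in any comparison with that group are given as a description without a test. The study asks how corticosteroid premedication bears on immune checkpoint blockade. There were 3 samples in each of 4 groups: isotype antibody; anti-PD-1 with anti-CTLA4 antibodies (dICB); dICB plus 10 mg of Dexa; and dICB plus 200 mg of Dexa. The antibodies block receptors that restrain T cells. No group had Dexa alone, the doses carry no body weight or schedule, and the labels used here state neither the mouse strain nor the tumour line nor the animals' age. Nothing states that replicates are different animals, so each p-value rests on a spread among samples that may be technical.

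Ly49 receptors are C-type lectin-like proteins that recognise MHC class I molecules and let mouse natural killer (NK) cells sense whether a neighbouring cell carries them. Most members are inhibitory and signal through a tyrosine motif in the cytoplasmic tail. The activating members lack that motif and pair with the adaptor DAP12. Klra4 encodes Ly49D, an activating receptor of NK cells. Klra17 encodes Ly49Q, an inhibitory member known from plasmacytoid dendritic cells and other myeloid cells rather than from NK cells. The set of Ly49 genes differs between mouse strains, and members are alike enough in sequence that a probe for one can pick up another. The counts of single members are therefore uncertain.

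Both genes lie on the minus strand of chromosome 6 in the C57BL/6J reference GRCm38.p6, Klra17 at chr6:129831154-129876672 and Klra4 at chr6:130043730-130067301. The 167057 bases between them hold 5 annotated genes, among them Klra5 and Klra6. The 250 bases before each start site (RefSeq, GRCm38.p6) are shown because both members had lower values in the same group, and capitals mark the longest run of letters that both share. The start is that of the promoter table, and for Klra4 it lies inside the annotated gene, so that 30 bases of its window overlap the gene. The windows are chr6:130067272-130067521 for Klra4 and chr6:129876673-129876922 for Klra17, and are written 5′ to 3′ on the minus strand.
Klra4: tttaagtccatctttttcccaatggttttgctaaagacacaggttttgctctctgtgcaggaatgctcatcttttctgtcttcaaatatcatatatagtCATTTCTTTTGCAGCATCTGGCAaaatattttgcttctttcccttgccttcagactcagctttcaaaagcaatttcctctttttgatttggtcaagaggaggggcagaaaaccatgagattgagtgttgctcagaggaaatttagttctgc
Klra17: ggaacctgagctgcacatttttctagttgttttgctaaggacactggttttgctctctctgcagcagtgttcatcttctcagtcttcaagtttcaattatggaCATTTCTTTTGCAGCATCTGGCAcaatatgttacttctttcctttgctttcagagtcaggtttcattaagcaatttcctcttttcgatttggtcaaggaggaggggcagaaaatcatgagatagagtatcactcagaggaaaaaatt

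Aligned end to end, the 2 windows were identical at 204 of 257 columns (79.4%). The shared run is 23 bases long, begins 151 bases before the start of Klra4 and 147 before that of Klra17, and was found in 2 of 32851 promoter windows of the table, those of these genes. It was picked from these 2 windows, so its presence in both was given, and the longest runs of other Ly49 pairs were not sought. Likeness of the windows was not particular to these members: the Klra8 window was 84.5% identical to that of Klra4, and the Klra2 window 75.2% identical to that of Klra17. On either strand the glucocorticoid receptor hexamer AGAACA and the RUNX core TGTGGT occurred 0 times in both windows, where 16.1% and 14.0% of all windows held them. The PU.1 core GAGGAA occurred 2 times in each, with 23.3% of all windows and 10 of 13 Ly49 windows holding it. A match or its lack is a matter of these letters in this window.

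Summed over genes, a sample held 252994 to 428944 counts, and 549 to 604 of the 770 genes lay above background. The background limit of a sample, which is the mean of its 8 negative control probes plus 2 standard deviations (SD), ran from 18.1 to 38.1 counts. Tests took the 635 genes whose mean reached 20 counts. Of the labelled tissue's markers, the epithelial genes Epcam and Egfr were above background in 12 of 12 samples and Cdh1 in 8. Of secreted proteins made in liver, Apoe, which macrophages also make, was so in 12, A2m in 6, and C9 and Mbl2 in 0. Replicate 1 of dICB stood apart in neutrophil genes, with a summed normalised level of the 8 listed genes at 18300 that set the top of the dICB range, where the other groups reached at most 708. A code in the labels, ICI7 or ICI10, whose meaning is not stated, was ICI7 for all isotype and ICI10 for all dICB samples, so for those groups the code and the antibody treatment cannot be told apart.

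Klra4 was counted above background in all 12 samples, but at low level. Its deposited counts were 58, 43 and 48 in the isotype samples and 47, 42 and 30 under dICB. They were 46, 42 and 46 with Dexa 10 mg, and 31, 21 and 28 with Dexa 200 mg. Each of these was higher than all 8 negative controls of its sample. The distance to background was short at Dexa 200 mg, where Klra4 exceeded the mean negative control by 9.88 to 11.9 counts, against 17.6 to 41.5 counts in the other 9 samples. A count of 21 has a 95% Poisson interval of 13.0 to 32.1, and the highest, 58, one of 44.0 to 75.0, which cover counting error only.

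Klra17 was at the edge of detection. Its counts were 29, 27 and 31 in the isotype samples, 38, 19 and 16 under dICB, 34, 18 and 42 with Dexa 10 mg, and 12, 9 and 10 with Dexa 200 mg. Only 4 of 12 samples were above the background limit: isotype replicate 1, dICB replicate 1, and Dexa 10 mg replicates 1 and 3. In 5 samples the count was below the mean negative control, and these were dICB replicate 2, Dexa 10 mg replicate 2 and all 3 at Dexa 200 mg. At Dexa 200 mg the counts minus that mean were -8, -2.12 and -6.12, and the counts exceeded 0, 2 and 1 of the 8 negative controls. Klra17 was therefore not detected above background in any sample of that group, and a fold change against it compares the other groups with background.

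**Figure D1:**
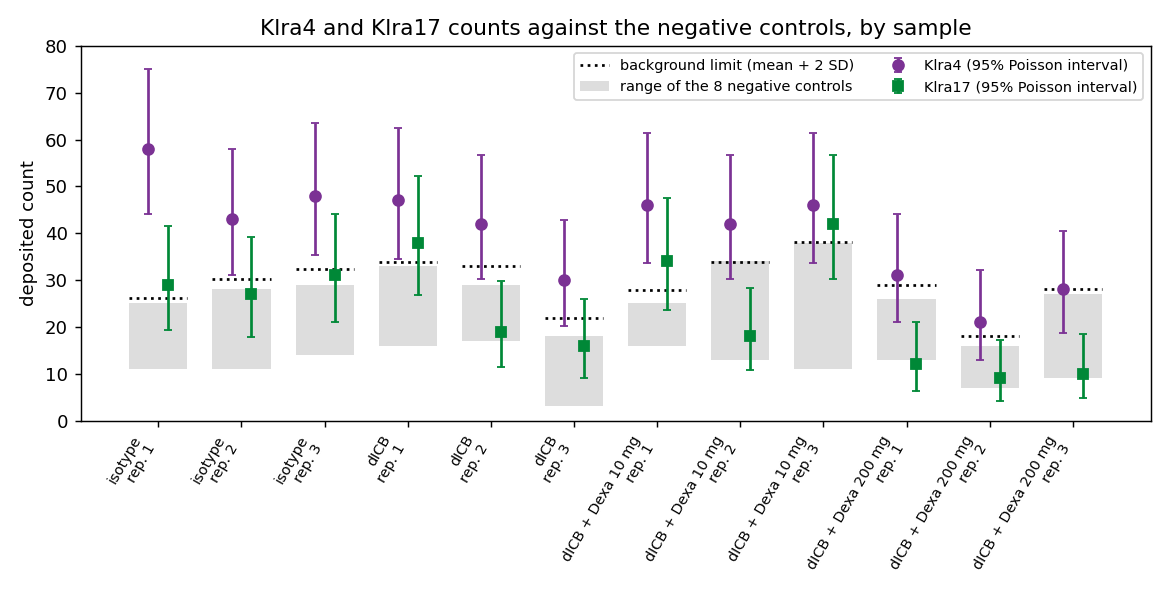
Deposited counts (vertical axis) of Klra4 (circles) and Klra17 (squares) in each of the 12 samples, with exact 95% Poisson intervals as bars; grey blocks span the lowest to the highest of 8 negative controls and dotted lines mark the background limit. Klra4 lies above the grey block in 12 of 12 samples, while Klra17 lies inside or below it in 7 and in all 3 samples at Dexa 200 mg.

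For comparison between samples, TMM factors (which assume that most genes do not change) put counts on 1 mean effective library; levels below are these normalised counts as mean ± SD with n = 3. Klra4 stood at 51.1 ± 5.22 under isotype, 40.4 ± 1.58 with Dexa 10 mg, 40.3 ± 5.42 under dICB and 29.4 ± 2.86 with Dexa 200 mg. Klra17 stood in the order 30.1 ± 4.07, 28.2 ± 10.2, 24.4 ± 9.21 and 11.5 ± 1.23 for isotype, Dexa 10 mg, dICB and Dexa 200 mg. Neighbours in that order differed by less than their spread for Klra17 except at Dexa 200 mg, and for Klra4 the Dexa 10 mg and dICB levels lay within their spread of each other. The scaled mean of the negative controls was 19.9 ± 3.87, 19.2 ± 0.959, 19.2 ± 0.716 and 17.1 ± 1.41 in the same order of groups.

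dICB was set against isotype to see what the antibodies alone did. Neither gene passed the test. For Klra4 the log2 fold change was -0.34 ± 0.18 (SE, adjusted p = 0.298 by edgeR's quasi-likelihood test). The single samples stood at 54.4, 45.1 and 53.8 under isotype and 41.9, 34.2 and 44.7 under dICB. The groups did not overlap, but the lowest isotype and the highest dICB sample were 45.1 and 44.7, closer than counting error; 12.8% of the 635 genes were without overlap and lower under dICB. For Klra17 the log2 fold change was -0.28 ± 0.30 (adjusted p = 0.627 by edgeR), with samples of 15.5 to 33.9 under dICB around the isotype range of 27.2 to 34.8. Of all genes 0% passed by edgeR at an adjusted p of 0.05, 127 had an unadjusted p under 0.05, and DESeq2 passed 30. Scaled on 20 housekeeping genes, both signs turned, to 0.08 for Klra4 and 0.15 for Klra17. That scaling moved the median of all genes to 0.45, and relative to the median the values were -0.37 and -0.30.

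Adding Dexa at 10 mg to dICB left Klra4 with a log2 fold change of 0.02 ± 0.17 (adjusted p = 0.992 by edgeR), with samples of 42.2, 39.1 and 40.1. These lay within the dICB range, and 4.09% of genes were without overlap and lower. Klra17 was at 0.20 ± 0.29 (adjusted p = 0.956 by edgeR), from samples of 31.2, 16.8 and 36.6, of which the lowest was replicate 2, the only one of that group coded ICI10. Within code ICI10 the value rested on that sample and was -0.49. Over all codes it was 0.45 without that sample and 0.56 without dICB replicate 1. The share of genes that passed was 0% by edgeR, with 60 at an unadjusted p under 0.05, and DESeq2 passed 0.

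Against isotype, the Dexa 10 mg group had Klra4 at -0.32 ± 0.17 (adjusted p = 0.662 by edgeR), with no overlap between the groups, which held for 5.04% of genes in the lower direction. Within code ICI7, which holds 3 isotype and 2 Dexa 10 mg samples, the value stayed negative. Klra17 was at -0.08 ± 0.29 (adjusted p = 0.944 by edgeR), and at 0.17 within code ICI7. Again 0% of genes passed by edgeR, with 53 at an unadjusted p under 0.05 and 4 by DESeq2. On positive control factors Klra4 was at -0.05 in this comparison, with the median of all genes at 0.24.

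The values at Dexa 200 mg are those by which both genes were chosen. Klra4 read 26.4, 29.6 and 32.1 in the 3 samples, where the other 9 ranged from 34.2 to 54.4. Klra17 read 10.2, 12.7 and 11.5, where the other 9 ranged from 15.5 to 36.6. For each gene the group thus lay below every other sample, and its 3 samples were close together. The fitted log2 differences of Klra4 were -0.77 from isotype, -0.43 from dICB and -0.44 from Dexa 10 mg, and those of Klra17 were -1.26, -0.98 and -1.18. As groups, genes without overlap in the lower direction made up 23.6% of the 635 genes against isotype, 3.78% against dICB and 12.1% against Dexa 10 mg. By edgeR 13.2% of genes (84) passed against isotype, with 205 at an unadjusted p under 0.05 and 123 passing by DESeq2. The edgeR count was 96, 13 and 0 without isotype replicate 1, 2 or 3. It was 50, 11 and 11 without Dexa 200 mg replicate 1, 2 or 3. Against dICB and against Dexa 10 mg 0% passed, with 54 and 76 at an unadjusted p under 0.05 and 3 and 2 passing by DESeq2. These comparisons share the Dexa 200 mg samples.

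**Figure D2:**
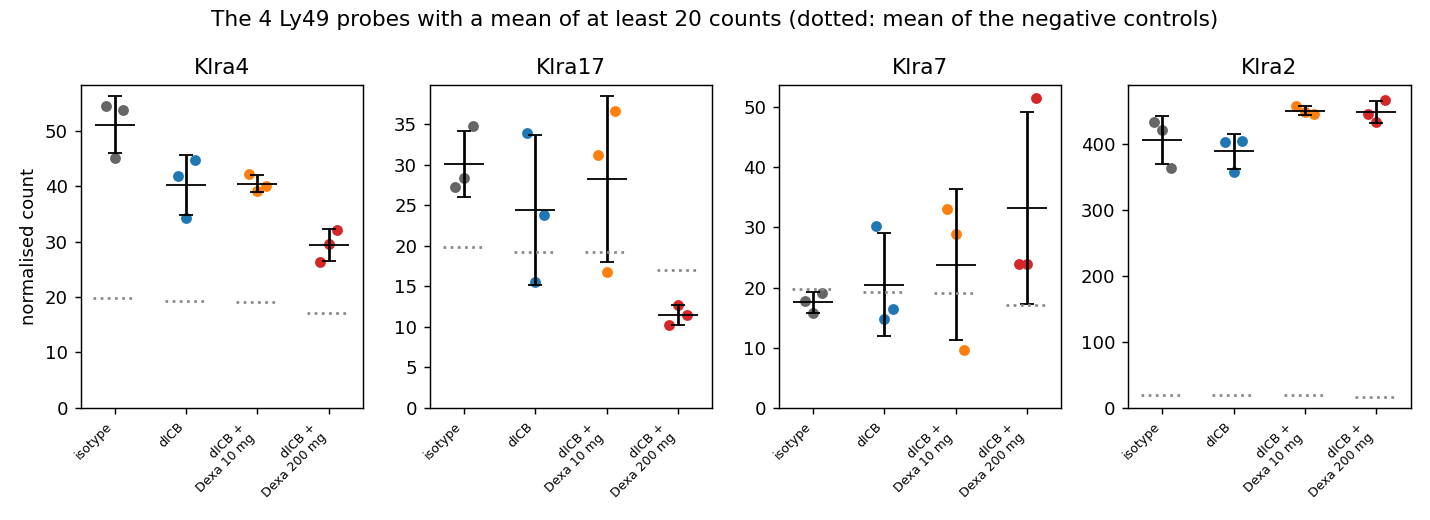
Normalised counts (vertical axes, each from 0) of the 4 Ly49 probes that were tested, by group; points are samples, black bars the mean ± SD of n = 3, and dotted lines the scaled mean of the negative controls. At Dexa 200 mg Klra4 has a mean of 29.4, above the dotted line, Klra17 one of 11.5, below it, Klra7 has its highest mean there (33.1) and Klra2 stays between 389 and 450.

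Within each code the values at Dexa 200 mg were also negative, but these are parts of the samples by which the genes were chosen. The split is therefore a description. The Dexa 200 mg group held 2 samples coded ICI10 and 1 coded ICI7. Against dICB within code ICI10, Klra4 was at -0.49 and Klra17 at -0.99. Against Dexa 10 mg, Klra17 was at -1.42 within code ICI7, from 1 sample at Dexa 200 mg, and at -0.50 within code ICI10, from 1 sample at Dexa 10 mg that stood at 16.8. Without dICB replicate 1 the difference of Klra17 from dICB was -0.63 in place of -0.98.

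Under each scaling Dexa 200 mg had the lowest level of both genes, while sizes and the order of the other 3 groups moved. The 20 housekeeping genes summed to 19300 to 26500 normalised counts at Dexa 200 mg and to 27700 to 40000 under isotype. Their sum was 24700 to 29300 under dICB, which overlaps the Dexa 200 mg range, and 28900 to 41000 with Dexa 10 mg. With factors from those genes, Klra4 was at -0.26 and Klra17 at -0.78 against isotype, while the median of all genes rose to 0.54; relative to it they were at -0.80 and -1.32. With positive control factors they were at -0.47 and -0.96. With the mean negative control subtracted, Klra17 was at the floor of 1 count in 5 samples, 3 of them at Dexa 200 mg, so its difference there has no size. Klra4 in that form was at -1.34 against isotype, -0.75 against dICB and -0.81 against Dexa 10 mg. The part of the lower housekeeping level in these differences was not tested.

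**Figure D3:**
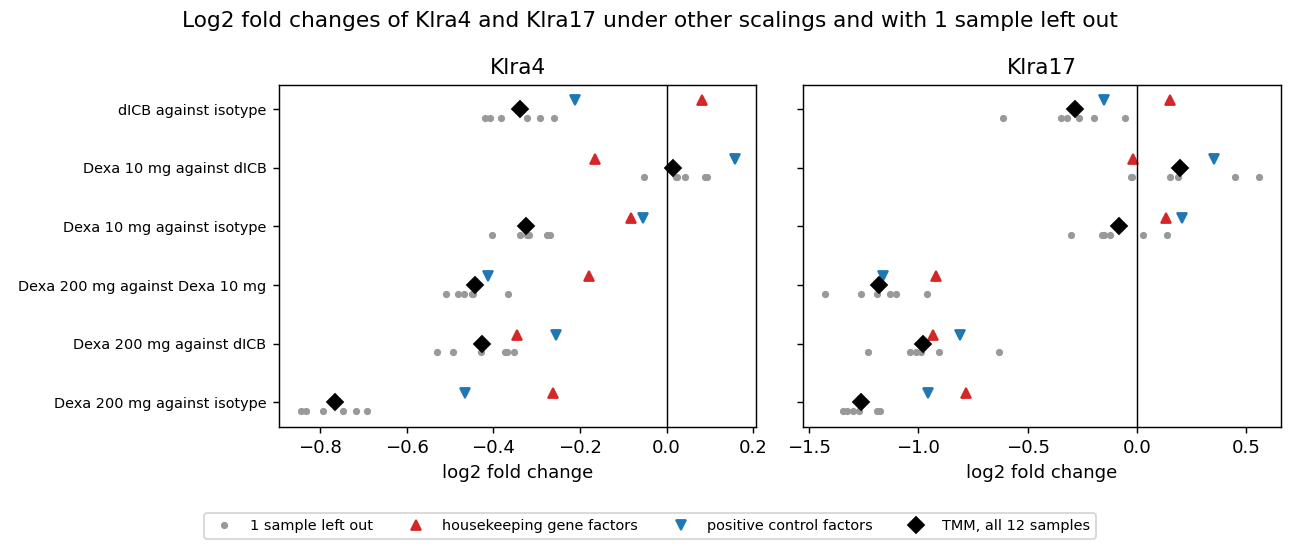
Log2 fold changes (horizontal axis) of Klra4 (left) and Klra17 (right) in the 6 comparisons; diamonds show TMM scaling over 12 samples, triangles the factors from housekeeping genes (up) or positive controls (down), and grey points the fits with 1 sample left out. All marks for Dexa 200 mg lie below 0, while those of Klra17 in the other comparisons lie on both sides.

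Most of the 10 other Ly49 probes were at background and could show neither a lower nor an equal level. Klra1 (Ly49A), Klra3 (Ly49C), Klra5 (Ly49E) and Klra6 (Ly49F), receptors of NK cells, together with Klra15, Klra20, Klra21 and Klra27, had means under 20 counts and were above the background limit in 0 of 12 samples each. The last 4 match no symbol or synonym in the C57BL/6J gene table, and the other 8 of the 12 Ly49 probes do. So of 12 probes 4 passed the filter on low counts, and of these only Klra4 and Klra2 were above background throughout.

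Klra2 encodes Ly49B, a member known from myeloid cells, and was by far the strongest of these probes, with 272 to 522 counts. Its level was 406 ± 36.5 under isotype, 389 ± 26.8 under dICB, 450 ± 6.60 with Dexa 10 mg and 449 ± 16.8 with Dexa 200 mg. At Dexa 200 mg it was thus no lower than elsewhere, with fitted log2 differences of 0.14 from isotype, 0.21 from dICB and -0.01 from Dexa 10 mg. It was without overlap and higher at Dexa 200 mg than under dICB, as were 5.04% of genes, and than under isotype (20.9%), and at Dexa 10 mg than under dICB (3.78% of genes) or isotype (8.03%). In the comparison of dICB with isotype its log2 fold change was -0.06 ± 0.15 (adjusted p = 0.856 by edgeR).

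Klra7 encodes Ly49G, an inhibitory receptor of NK cells, and went the other way in value. Its counts were 19, 15 and 17 under isotype, 34, 18 and 11 under dICB, 36, 31 and 11 with Dexa 10 mg, and 28, 17 and 45 with Dexa 200 mg. It was above the background limit in 3 of 12 samples, 1 in each group but isotype. Its level was 33.1 ± 16 at Dexa 200 mg and 17.5 ± 1.68 under isotype. The single samples, at 23.9 to 51.6 and 15.7 to 19.1, did not overlap, as was the case in the higher direction for 20.9% of genes. Its log2 fold change of dICB against isotype was 0.22 ± 0.42 (adjusted p = 0.823 by edgeR).

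Set beside probes that detect no mouse gene, the difference of Klra17 at Dexa 200 mg was the larger and that of Klra4 lay nearer to their range. As means of log2 normalised counts, Klra4 differed from isotype by -0.76 and Klra17 by -1.25, while the 8 negative controls ranged from -0.70 to 0.30 with a median of -0.21. Against dICB the members stood at -0.43 and -0.91 and the negative controls at -0.49 to 0.44. Against Dexa 10 mg they stood at -0.44 and -1.10 and the negative controls at -0.54 to 0.20. The 10 other Ly49 probes ranged from -0.64 to 0.76 against isotype with 3 of 10 lower, from -0.57 to 0.62 against dICB with 6 of 10 lower, and from -0.47 to 0.51 against Dexa 10 mg with 4 of 10 lower. Of the 635 tested genes, 307, 337 and 293 had lower fitted values in these comparisons, in the same order. Klra3 and Klra27, both at background, were lower in all 3, and Klra5, also at background, was without overlap and lower than dICB. Unlike the negative controls, Klra4 was above background in each sample, and 2 of 8 negative controls were also without overlap and lower than isotype.

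**Figure D4:**
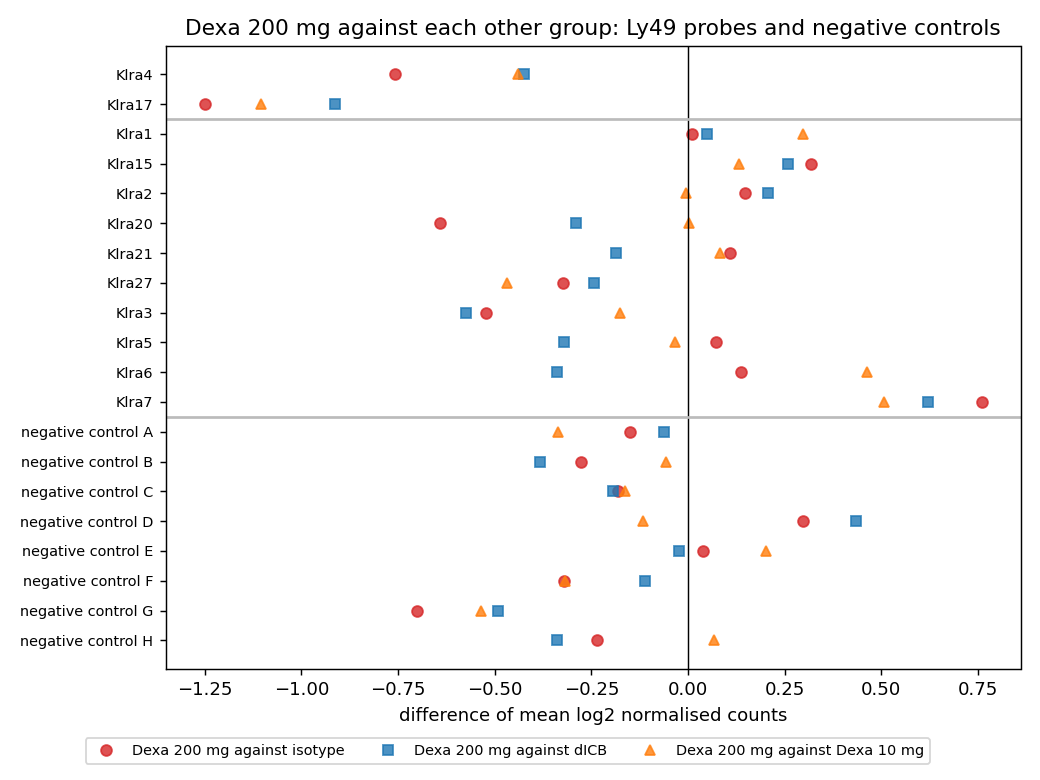
Difference of the mean log2 normalised count at Dexa 200 mg from each other group (horizontal axis), for Klra4 and Klra17 (top), the 10 other Ly49 probes (middle) and the 8 negative controls (bottom). Klra17 is lowest in all 3 comparisons, from -0.91 to -1.25, and Klra4, from -0.43 to -0.76, lies within or close to the range of the negative controls.

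Of the tested NK and plasmacytoid dendritic cell genes, 0 passed as fallen in any comparison by edgeR. In all comparisons but Dexa 200 mg against isotype 0% of all genes passed, so a fall could be called only there. In bulk tumour, fewer cells of a type and less RNA per cell cannot be told apart. The 15 NK and cytotoxic genes on the panel summed to 1930 to 3230 normalised counts at Dexa 200 mg, 2080 to 2580 under isotype, 1760 to 2930 under dICB and 2280 to 3030 with Dexa 10 mg. Of the 13 tested, 0 fell in any comparison by edgeR. At Dexa 200 mg against isotype 1 rose, the granule protease Gzmb (1.25 ± 0.32, adjusted p = 0.0246 by edgeR). In that comparison 13.2% of all genes passed. Gzmb stood at 57.4 under isotype, 125 under dICB and 139 at Dexa 200 mg, and against dICB 0% of genes passed. Without isotype replicate 3 the call of Gzmb and those of the other list genes named for Dexa 200 mg against isotype were lost, since 0 genes then passed. Among them the defining NK markers were themselves near background, Ncr1 (NKp46) being above the limit in 1 and Klrb1c (NK1.1) in 0 of 12 samples. Klrd1 and Klrk1, which T cells also express, were well measured, at 330 ± 89.6 and 166 ± 25 at Dexa 200 mg against 305 ± 58.5 and 121 ± 3.74 under isotype.

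Relative to the 13 tested NK and cytotoxic genes of the same sample, Klra4 was -0.63 ± 0.07 under isotype, -1.08 ± 0.50 under dICB, -1.15 ± 0.11 with Dexa 10 mg and -1.68 ± 0.06 with Dexa 200 mg, as log2 differences from their mean (SD, n = 3). The Dexa 200 mg samples ran from -1.72 to -1.61, below all isotype and Dexa 10 mg samples, but the lowest dICB sample, at -1.64, lay within them. These ratios use the Klra4 values by which the gene was chosen, so low ratios there are a description. Single genes without overlap and lower made up 23.6% against isotype and 12.1% against Dexa 10 mg. The 13 list genes had a median log2 fold change of 0.27 at Dexa 200 mg against isotype, which also lowers the ratio. The other NK receptors of the panel, 7 tested, had 0 that passed in either direction in the 6 comparisons by edgeR, 0 at an unadjusted p under 0.05 and 0 by DESeq2. Of all genes 0% passed by edgeR, except at Dexa 200 mg against isotype (13.2%).

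For Klra17 the plasmacytoid dendritic cell list gave the context. Its 8 genes on the panel summed to 2130 to 2430 at Dexa 200 mg, above the isotype range of 1860 to 2010. They summed to 2200 to 2350 with Dexa 10 mg, also above isotype, and to 1670 to 2130 under dICB. Single genes without overlap and higher than isotype made up 20.9% of all tested genes at Dexa 200 mg and 8.03% with Dexa 10 mg. The sum is weighted to Bst2, which stood at 949 ± 75.1 under isotype and 947 ± 122 at Dexa 200 mg. Of the 7 list genes tested 0 fell. The interferon regulator Irf7 rose at Dexa 200 mg against isotype, from 136 to 287 (1.06 ± 0.27, adjusted p = 0.0225 by edgeR). Under dICB Irf7 stood at 213, and with Dexa 10 mg at 230. A single call among 7 is near the 13.2% of all genes that passed for Dexa 200 mg against isotype. These genes are not particular to that cell type, and Ccr9, the gut-homing chemokine receptor of the list, was above background in 0 of 12 samples. The macrophage list, whose cells can also carry Ly49Q, summed to 3170 to 4130 at Dexa 200 mg and 1780 to 2820 under isotype. It summed to 2480 to 3770 under dICB and 2250 to 2960 with Dexa 10 mg. At Dexa 200 mg against isotype 3 of 11 rose and 1 fell by edgeR, where 13.2% of all genes passed. The share of these cells in the values of Klra17 was not tested. Of 11 T cell genes 0 passed in any comparison by edgeR, and Dexa 200 mg against isotype was the only comparison in which any gene passed. At Dexa 200 mg 2 of 11 had lower values than under isotype, as did 307 of all 635 tested genes.

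Some of the ligands and signalling partners were measured too. DAP12, the adaptor of activating members, was not among the 6 of 11 listed adaptors and kinases on the panel. Of 4 listed inhibitory phosphatases 1, Inpp5d, was on it. Ly49 receptors bind classical MHC class I, whose H2-D1 stood at 5660 ± 475 under isotype and 5980 ± 507 at Dexa 200 mg, and H2-K1 at 673 ± 175 and 1280 ± 132. Of 9 tested genes of MHC class I and its loading, H2-K1 rose at Dexa 200 mg against isotype (0.92 ± 0.23, adjusted p = 0.0225 by edgeR). H2-Q1 fell there (-0.98 ± 0.28, adjusted p = 0.0353 by edgeR), where 13.2% of all genes passed. Under dICB H2-K1 stood at 1040. H2-Q1 stood at 88.1 under isotype, 54.8 under dICB and 43.6 at Dexa 200 mg. In the other 5 comparisons 0 of 9 passed by edgeR, as did 0% of all genes. Of 6 receptor adaptors and kinases, Syk, the kinase recruited by DAP12, rose at Dexa 200 mg against isotype (0.97 ± 0.23, adjusted p = 0.0184 by edgeR). So did the kinase Btk (1.03 ± 0.23, adjusted p = 0.0171 by edgeR), where 13.2% of all genes passed. Syk stood at 116 under isotype, 203 under dICB and 231 at Dexa 200 mg, and Btk at 71.1, 105 and 148. DAP10, encoded by Hcst, was at 97.8 ± 26.3 at Dexa 200 mg, 97.5 ± 37.1 under dICB and 75.4 ± 18.9 under isotype.

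Across the 12 samples the log2 levels of Klra4 and Klra17 had a Pearson r of 0.84 and a Spearman rho of 0.70, and r was 0.54 over the 9 samples without Dexa 200 mg. That the 3 samples chosen for low values of both raise r is a property of the choice. The rankings that follow also use all 12 samples. Genes that differ at Dexa 200 mg therefore rank as like or unlike in part by that choice, and no ranking was made without those samples. Of 634 other tested genes the 5 most like Klra4 were the cytokine Il11 (r = 0.88), the platelet chemokine Ppbp (0.88), the adhesion gene Mcam (0.85), the immediate early gene Egr1 (0.84) and Klra17. Those most like Klra17 were Cd244, a receptor of NK and T cells (r = 0.88), Egr1 (0.84), Klra4, Il11 (0.83) and Polr1b, a subunit of RNA polymerase I (0.82). Il11 too had low counts, from 6 to 35. Those most unlike Klra4 were Ccl22 (-0.89), Ccl19 (-0.88) and Clec7a (-0.86), and those most unlike Klra17 were Adora2a (-0.82), Tnfsf10 (-0.82) and Il2ra (-0.81). Within a sample all genes share its library, depth and scale factor. With housekeeping gene factors 3 of the 5 most like genes of each member remained, and with rank correlation 1 of 5. The members were among those lost with housekeeping gene factors, their r being 0.60 (ranks 21 and 12), as was Cd244, with r = 0.36 to Klra17. The 3 genes most unlike Klra4 then had r of -0.30, -0.25 and -0.22, and those most unlike Klra17 -0.59, -0.54 and -0.56.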

How the data were processed

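The authors deposited raw counts, whole numbers with no scaling, of 784 probes: 770 genes, 6 positive controls and 8 negative controls. Instrument and counting software: not given in the sources used here. Per the labels' protocols, RNA came from formalin-fixed, paraffin-embedded tumours, a material in which RNA is usually fragmented. Probe sequences and protein sequences were not used here. Background was left in, so folds of probes near it are understated.

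Counts were fitted in R 4.3.3 with edgeR 4.0.16 (TMM, quasi-likelihood, a mean per group over 12 samples, minimum mean count 20, Benjamini-Hochberg over 635 genes, threshold 0.05, prior count 2 for fold changes). Standard errors are the log2 fold change over the root of F, which is approximate. Normalised counts are scaled to a mean effective library of 357600. On counts simulated for dICB against isotype (635 genes), 58 of 100 genes changed by 1 log2 unit and 100 of 100 changed by 2 were called. Alternatives used DESeq2 1.42.0 and limma 3.58.1; promoters were aligned in Biopython 1.88. Named genes were the Ly49 probes, genes of marker lists and the genes most and least like each member by Pearson r; list genes that passed were named after their values were seen. The members and lists were chosen with earlier results of these data known. Samples of a group differed beyond counting error (chi-square per degree of freedom at least 4.05).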

Additional observations from a re-analysis of the deposited data

How the results depend on the processing

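Of 316 alternative values, 247 kept their direction and size or call, 50 moved and 19 changed sign. All differences at Dexa 200 mg kept a negative sign for both genes under every alternative run. Those alternatives reuse the samples by which the genes were chosen, so the constant sign follows in part from the choice. Neither gene passed in the 3 tested comparisons under any alternative that gave it an adjusted p. DESeq2 gave none to either gene for dICB against isotype. With DESeq2, 30 genes passed for dICB against isotype and 4 for Dexa 10 mg against isotype. For Dexa 200 mg it passed 2 against Dexa 10 mg, 3 against dICB and 123 against isotype. With housekeeping factors, Klra4 and Klra17 were at 0.083 and 0.154 for dICB against isotype (45 genes passing), -0.165 and -0.017 for Dexa 10 mg against dICB, and Klra17 at 0.136 for Dexa 10 mg against isotype. Klra4 was at -0.18 for Dexa 200 mg against Dexa 10 mg, and against isotype the genes were at -0.262 and -0.781 (166 passing). With positive control factors, 4 genes passed for dICB against isotype, Klra17 was at 0.206 for Dexa 10 mg against isotype, Klra4 at -0.254 for Dexa 200 mg against dICB, and both at -0.465 and -0.957 against isotype. Without a filter, 2 genes passed for dICB against isotype; with a minimum mean of 50 counts neither member was tested. With background subtracted (limma), Klra4 and Klra17 at Dexa 200 mg were at -0.809 and -2.36 against Dexa 10 mg, -0.754 and -1.847 against dICB, and -1.339 and -3.163 against isotype, where the values of Klra17 depend on the floor. A prior count of 16 gave -0.317 and -0.692 against Dexa 10 mg, -0.559 for Klra17 against dICB, and -0.567 and -0.75 against isotype.

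The deviations of same-numbered replicates within their groups, not their levels, correlated from -0.39 to 0.29 between groups. These values show no steady pairing by number, but 3 samples per group are too few to exclude one. With the replicate block 1 gene passed for dICB against isotype and 1 for Dexa 200 mg against dICB. With the label code as covariate, Klra17 was at 0.272 for dICB against isotype, Klra4 and Klra17 at -0.07 and -0.212 for Dexa 10 mg against dICB, Klra17 at 0.06 for Dexa 10 mg and -0.894 for Dexa 200 mg against isotype (29 passing). Within ICI7, Klra17 was at 0.168 for Dexa 10 mg against isotype and Klra4 at -0.337 for Dexa 200 mg against Dexa 10 mg, with 7 genes passing there and 140 for Dexa 200 mg against isotype. Within ICI10, Klra4 and Klra17 were at -0.033 and -0.49 for Dexa 10 mg against dICB, and Klra17 at -0.497 for Dexa 200 mg against Dexa 10 mg. Fitting 2 groups alone, 181 passed for Dexa 200 mg against isotype. Without both dICB replicate 1 and Dexa 10 mg replicate 2, 6 passed for dICB against isotype, 2 for Dexa 200 mg against Dexa 10 mg and 169 against isotype, and Klra17 was at 0.167 for Dexa 10 mg against isotype.

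Leaving out 1 sample at a time, passing genes ran from 0 to 42 for dICB against isotype (42 without dICB replicate 3), 0 to 1 for Dexa 10 mg against dICB, 0 to 8 for Dexa 200 mg against dICB (8 without dICB replicate 2) and 0 to 96 against isotype. For Dexa 10 mg against dICB, Klra4 ran from -0.052 to 0.093 and Klra17 from -0.025 to 0.56, and Klra17 from -0.301 to 0.141 for Dexa 10 mg against isotype. The causes of these moves were not tested. Counts of 9 to 58 per sample limit the precision for both genes.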
